A study of Rattus norvegicus with 20 samples.

Results

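The genes described here are those of the urea cycle and of amino acid breakdown, 44 listed genes, of which 43 had a probe set on the array among 14217 genes measured. For a gene with several probe sets the brightest on average was taken, and the remaining gene, Pcbd1, was not analysed here. The 43 genes were read in 9 pathway groups: the urea cycle (7 genes), glutamate and transamination (5), proline and ornithine (4), phenylalanine and tyrosine (6), tryptophan (4), glycine and serine (5), sulfur and methyl metabolism (6), branched-chain amino acids (5) and lysine (1).

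Liver RNA of 20 male Harlan Sprague-Dawley rats was measured on Affymetrix expression arrays, with 1 array per rat. Tricresyl phosphate (TCP), an organophosphate found in plastics, flame retardants and lubricants, was given in corn oil by oral gavage on 4 consecutive days at 62.3, 124.5, 248.6, 497.3 or 994.6 mg/kg body weight, with 3 rats at each dose. The 5 control rats received the corn oil vehicle, and no age was given in the sources used here. RNA came from frozen pieces of the left liver lobe, so each value is an average over all cells of the piece, and fewer cells of a type cannot be told apart from less RNA per cell.

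The liver takes amino groups off surplus amino acids and passes them, through glutamate and ammonia, into the urea cycle, while the carbon skeletons enter glucose, ketone body or energy metabolism. Each amino acid has its own chain of enzymes, and the genes for many of them respond to fasting hormones, glucocorticoids and dietary protein. Most of these enzymes work in hepatocytes, and urea cycle enzymes are richest around the portal vein, while glutamine synthetase is confined to a rim around the central vein.

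The values are log2 expression values, so a difference of 1 is a doubling, and a level is compared between rats for the same gene only. A gene was called where the limma fit gave a Benjamini-Hochberg adjusted p under 0.05 over all 14217 genes. Within groups, arrays correlated at 0.986 to 0.996. Replicate 1 of 994.6 mg/kg stood apart, at 37.1 on the first principal component (20.1% of the variance) against -14.1 to 9.14 for the other 19 arrays. The member calls at 994.6 mg/kg are therefore given with and without it. Cell type markers and most uncalled members are given only with it. The GAPDH control transcript had a 3′ minus 5′ log2 difference, a sign of RNA quality, of 1.13 to 1.56 in control arrays and 0.612 to 1.11 in 14 of the 15 treated arrays, with replicate 2 of 124.5 mg/kg at 2.58. This split runs along treatment, so its part in the differences from control below cannot be told apart from that of TCP. With the GAPDH value as a covariate, 6 of the 8 members called at 994.6 mg/kg stayed called, and the calls of Ahcy and Nags ended. Beside group means, such a covariate follows only differences between arrays of the same group, so this fit cannot settle the question.

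Hepatocyte markers were present, with albumin at a mean of 15.34 in control and 15.33 at 994.6 mg/kg, and 0 of 7 hepatocyte markers were called at that dose. The mean of the hepatocyte list ran from -0.1107 to -0.0225 around the control mean in the 3 arrays of 994.6 mg/kg. It ran from -0.0184 to 0.0158 in control, so all 3 arrays lay below all control arrays by a small amount. Red blood cell markers were lower at 994.6 mg/kg, with 4 of 5 called, and their list mean ran from -1.71 to -0.72 against -0.05 to 0.08 in control. Of the bile duct markers, 1 of 4 was called, the epithelial adhesion gene Epcam (0.69 ± 0.14, SE, adjusted p = 0.00632). No marker was called among 7 for Kupffer cells and macrophages, 4 for endothelial cells, 6 for stellate cells and fibroblasts, 5 for lymphocytes and 3 for neutrophils. Of all genes 4.47% were called at 994.6 mg/kg. The part of the hepatocyte, red blood cell and bile duct markers in the member differences was not tested.

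Promoters from the RefSeq table (build GRCr8) are shown for Cbs, Kmo and Hgd, the called members with a table entry that changed most at 994.6 mg/kg. Each runs 5′ to 3′ from 250 bases before to 50 after the annotated start. The Cbs sequence is chr20:9733876-9734175 on the minus strand, that of Kmo chr13:90089271-90089570 on the plus strand and that of Hgd chr11:76643718-76644017 on the minus strand. Capitals mark matches to the motifs searched.
Cbs: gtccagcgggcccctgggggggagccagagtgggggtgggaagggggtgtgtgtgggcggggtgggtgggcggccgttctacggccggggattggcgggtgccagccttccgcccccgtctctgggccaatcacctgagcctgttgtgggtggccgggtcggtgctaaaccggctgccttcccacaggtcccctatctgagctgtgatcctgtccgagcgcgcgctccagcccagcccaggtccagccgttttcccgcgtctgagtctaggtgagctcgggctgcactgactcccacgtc
Kmo: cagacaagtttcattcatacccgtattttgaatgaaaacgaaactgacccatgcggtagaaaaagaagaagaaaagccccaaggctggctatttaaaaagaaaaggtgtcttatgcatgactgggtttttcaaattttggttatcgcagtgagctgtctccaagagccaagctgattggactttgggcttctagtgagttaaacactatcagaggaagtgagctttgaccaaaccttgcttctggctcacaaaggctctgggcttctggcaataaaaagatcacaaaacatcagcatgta
Hgd: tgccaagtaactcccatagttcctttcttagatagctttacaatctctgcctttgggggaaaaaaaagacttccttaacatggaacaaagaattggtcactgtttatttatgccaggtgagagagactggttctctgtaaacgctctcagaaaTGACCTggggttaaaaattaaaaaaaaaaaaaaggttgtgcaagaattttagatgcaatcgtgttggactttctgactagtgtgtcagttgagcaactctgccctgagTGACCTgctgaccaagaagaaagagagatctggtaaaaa

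Both strands were searched for TGACGTCA (the cAMP response element), its core TGACG, the glucocorticoid receptor motif TGTTCT, the nuclear receptor motifs AGTTCA and AGGTCA, and the C/EBP motif ATTGCNNAA. The Hgd promoter held 2 matches to AGGTCA, read on the opposite strand as the capitals show, at positions -97 to -92 and 12 to 17 from the start. Those of Cbs and Kmo held 0 of these motifs. The 3 sequences differ in base composition: 69.7% of bases are G or C in Cbs, 41.7% in Kmo and 39.3% in Hgd, against a median of 51.7% over all 33469 promoters of the table. AGGTCA occurred in 10 of the 37 member promoters in the table (27%) and in 16.2% of all promoters. For AGTTCA the counts were 8 of 37 (21.6%) and 14.5%, and for TGTTCT 5 of 37 (13.5%) and 20.7%. TGACG was in 9 of 37 (24.3%) and 21.2%, while TGACGTCA, which contains TGACG, was in 0 of 37 and 1.83%. ATTGCNNAA was in 0 of 37 and 2.33%. A match is a run of letters in this window and not a measured binding site.

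At 994.6 mg/kg, 8 of 43 members were called (18.6%), beside 4.47% of all genes, and 7 of the 8 were lower than control. All genes include many dimmer than the members, so these shares do not compare like genes, and their difference was not tested. The members were also chosen with earlier results of these data known, which can raise their share of calls. By mean level, Sds stood at percentile 51.7 of all genes and every other member at 82.6 or above. By direction, 7 members were lower beside 1.96% of all genes, and 1 was higher beside 2.5%. The genes that fell were Prodh, Cbs, Kmo, Hgd, Nags, Ahcy and Glud1, and the gene that rose was Shmt1. They lie in 7 of the 9 pathway groups, and the branched-chain and lysine groups had no call. Over all 43 members 28 differences lay below 0 and 15 above, with a median of -0.11, beside -0.01 for all genes, of which 51.6% lay below 0. An unadjusted p under 0.05 was seen for 17 members, beside 18.6% of all genes. All 3 treated arrays lay below all 5 control arrays for 12 members and above them for 4, beside 7.12% and 6.91% of all genes. The sizes were modest: 4 members differed by at least 1.5-fold, and 26 by less than 0.25 on the log2 scale. With the lowest 50% of genes left out, 9 members and 730 of the remaining genes were called, against 8 and 635 with all genes. There were thus more calls among 50% of the genes than among all, so the called share of the remaining genes was well above 4.47%.

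**Figure D1:**
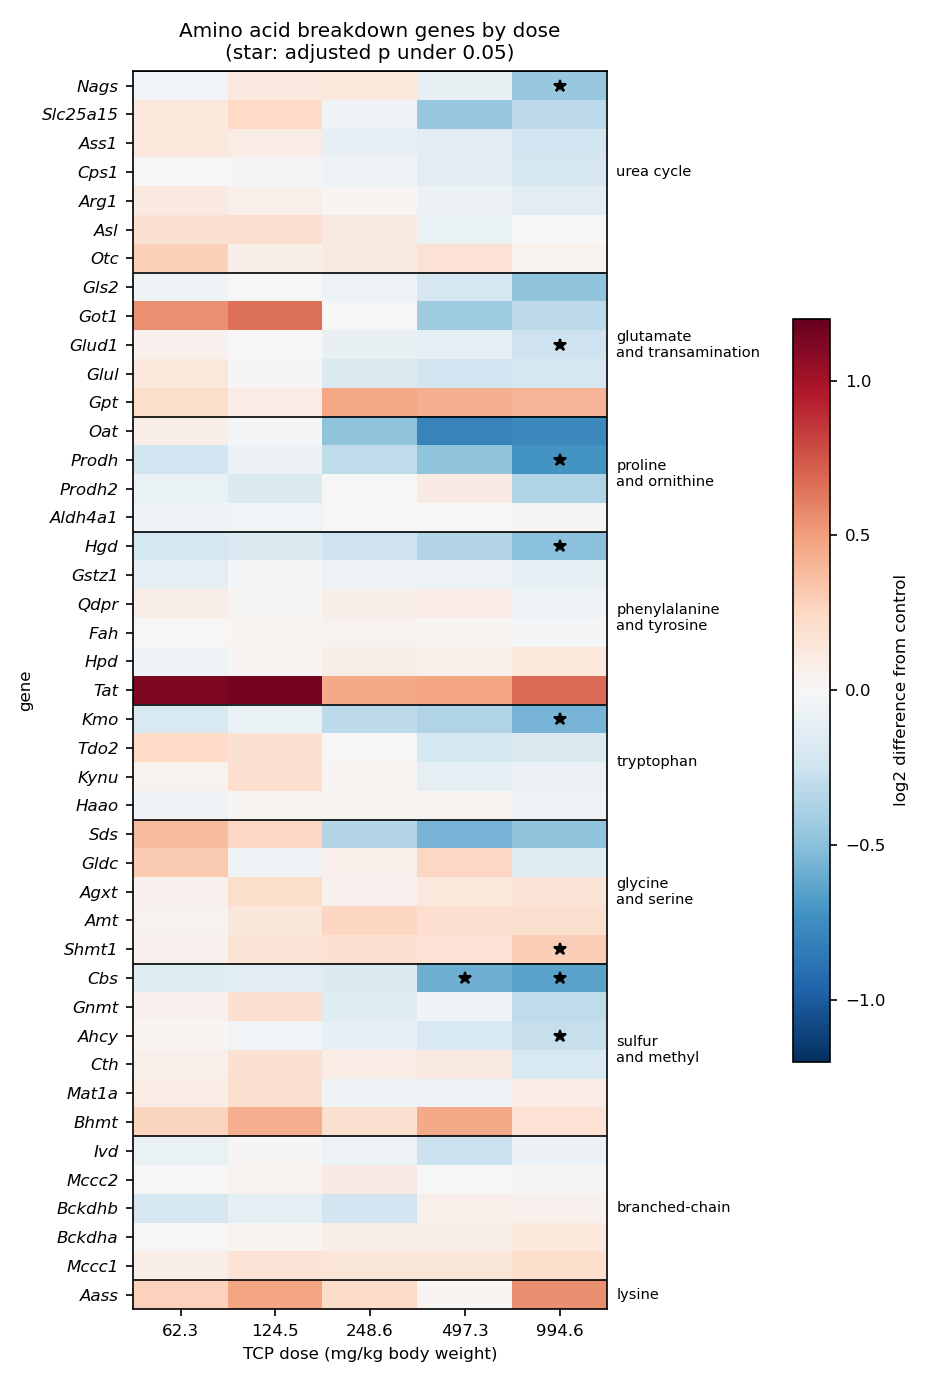
Colour gives the log2 difference of the group mean from the control mean for each of the 43 genes (rows, by pathway group) at each TCP dose in mg/kg (columns), with a star where the adjusted p was under 0.05. The stars lie in the 994.6 mg/kg column for 8 genes and in the 497.3 mg/kg column for Cbs.

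The count at 994.6 mg/kg depended on single arrays. Without replicate 1 of that dose, 3 members stayed called, Cbs, Hgd and Prodh, and 173 of all genes. It was 4 without control replicate 2 and 5 without control replicate 1 or without replicate 3 of 994.6 mg/kg. Cbs, Hgd and Prodh were called under all 18 alternative settings tried for this comparison.

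Below the highest dose few members passed the test. At 497.3 mg/kg 1 of 43 was called, Cbs, beside 0.732% of all genes, while 11 members had an unadjusted limma p under 0.05, beside 12.2%, and that call was lost when control replicate 5 or either of replicates 1 and 3 of the dose was left out. At 248.6 mg/kg limma called 0 members, beside 0.0563% of all genes, and 6 members had an unadjusted p under 0.05, beside 6.65%. At 124.5 mg/kg it called 0, beside 0.00703%, with 3 members at an unadjusted p under 0.05, beside 5.04%. At 62.3 mg/kg it called 0 members and 0% of all genes, with 4 members at an unadjusted p under 0.05, beside 2.45%. As shares of the 43 members, these unadjusted counts lay above those of all genes at each of these doses. The members are mostly bright genes, chosen with earlier results of these data known, and this difference in shares was not tested. The member medians were -0.06, 0.01, 0.04 and 0.05 from 497.3 down to 62.3 mg/kg. Between 994.6 and 497.3 mg/kg 0 of 43 members were called by limma, beside 0.0211% of all genes. There 6 members had an unadjusted p under 0.05, beside 7.61% of all genes.

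Across dose steps, from 0 for control to 5 for 994.6 mg/kg, 11 of 43 members had a called slope (25.6%), beside 6.47% of all genes, 3 upward beside 3.9% and 8 downward beside 2.57%. An unadjusted p under 0.05 was seen for 21, beside 20.7%. The slopes were negative for Ahcy, Cbs, Cps1, Glud1, Hgd, Kmo, Oat and Prodh, and positive for Amt, Gpt and Shmt1. Of the 12 members called at 994.6 mg/kg or in the trend, 7 were called in both. Over the treated arrays alone 0 members had a called slope by limma, and 31 of all genes did. The smallest adjusted p among the 11 was then 0.0691 for Oat, followed by 0.0727 for Cbs and 0.0742 for Prodh. The trend and each dose comparison use the same control arrays. With the lowest 50% of genes left out, 12 members and 989 of the remaining genes had a called slope, against 11 and 920 with all genes. The called share of the remaining genes was thus well above 6.47%. All genes include many dimmer than the members, and the difference between 25.6% and 6.47% was not tested. Here too the choice of members with earlier results known can raise their share.

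**Figure D2:**
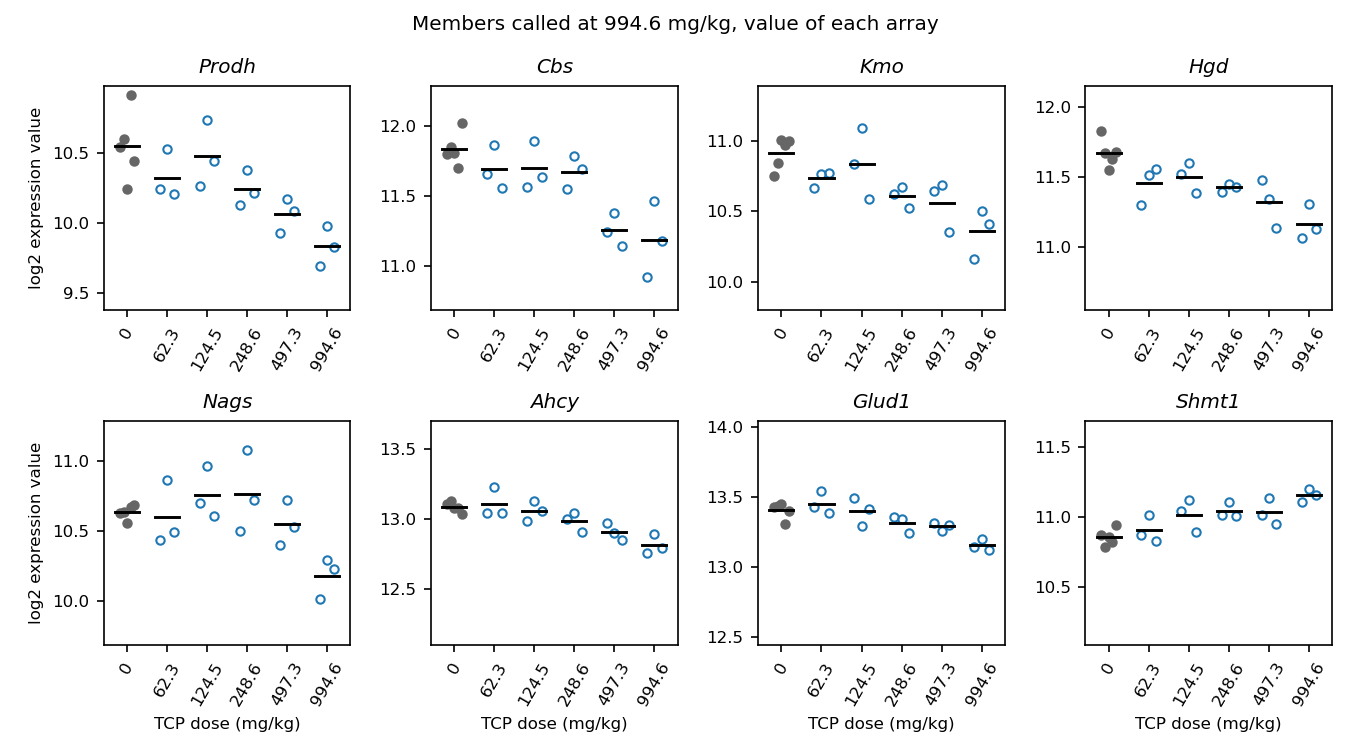
Each point is the log2 expression value of 1 rat (filled, control; open, TCP) against dose in mg/kg, with group means as bars, for the 8 members called at 994.6 mg/kg. In all 8 panels the 3 points at 994.6 mg/kg lie outside the range of the 5 control points, below it for 7 genes and above it for Shmt1.

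In the urea cycle group the gene called at 994.6 mg/kg was Nags. Its enzyme makes the N-acetylglutamate that switches on carbamoyl phosphate synthetase and is not a step of the cycle itself. Nags read 10.63, 10.64, 10.56, 10.67 and 10.68 in control rats 1 to 5 and 10.02, 10.29 and 10.23 at 994.6 mg/kg. From the lowest dose to 497.3 mg/kg it read 10.44, 10.87 and 10.49, then 10.70, 10.96 and 10.60, then 10.50, 11.08 and 10.72, then 10.40, 10.72 and 10.53. Only the highest dose lay clear of control, and the 4 lower doses overlapped it. The fall at 994.6 mg/kg was -0.46 ± 0.13 (SE, adjusted p = 0.0439, lower in 3 of 3 rats), and without replicate 1 of that dose it was -0.38 with an adjusted p of 0.254. The call ended in 11 of 18 alternatives, among them leaving out any 1 of the control or 994.6 mg/kg arrays.

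Cps1, the mitochondrial carbamoyl phosphate synthetase that fixes ammonia, had a called trend. It read 14.11, 14.15, 14.00, 14.10 and 14.00 in control rats and 13.79, 13.88 and 13.93 at 994.6 mg/kg. In between it read 14.02, 14.06 and 14.11 at 62.3 mg/kg, 14.05, 13.96 and 14.15 at 124.5, 14.00, 14.11 and 13.96 at 248.6, and 13.90, 13.91 and 13.98 at 497.3 mg/kg. Both upper doses lay below all control rats, by a narrow margin. The slope was -0.04 per dose step (adjusted p = 0.0327), and the difference at 994.6 mg/kg was -0.21 ± 0.07 (adjusted p = 0.0923). A dimmer probe set of Cps1 differed by -0.00 at 994.6 mg/kg, and with the mean of both the trend call ended, as it did in 10 other of the 31 alternatives.

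The other urea cycle genes did not pass the test at 994.6 mg/kg or in the trend. Otc, which joins carbamoyl phosphate to ornithine, differed by 0.04 (adjusted p = 0.902) and Asl, which releases fumarate and arginine, by -0.01 (adjusted p = 0.984). A dimmer Asl probe set differed by 0.23 (limma adjusted p = 0.416 over all probe sets). Ass1, which makes argininosuccinate, differed by -0.23 ± 0.10 (adjusted p = 0.231), and Arg1, which splits arginine into urea and ornithine, by -0.13 (adjusted p = 0.427). The ornithine carrier Slc25a15 of the mitochondrial membrane differed by -0.31 ± 0.17 (adjusted p = 0.358), with 5 of its 6 probe sets below 0.

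Around glutamate, Glud1 fell at 994.6 mg/kg, and the slope over dose steps was called downward for Glud1 and upward for Gpt. Over the treated arrays alone neither of these slopes was called. Glud1, glutamate dehydrogenase, frees ammonia from glutamate inside mitochondria. Its values were 13.43, 13.44, 13.45, 13.31 and 13.40 in control rats and 13.15, 13.20 and 13.12 at 994.6 mg/kg. At the lower doses they were 13.43, 13.54 and 13.39, then 13.50, 13.30 and 13.42, then 13.36, 13.35 and 13.25, then 13.32, 13.26 and 13.30 at 497.3 mg/kg. The highest dose lay below every other rat in the study. The fall was -0.25 ± 0.07 (adjusted p = 0.042), and the second Glud1 probe set differed by -0.36 (adjusted p = 0.00871 over all probe sets). Without replicate 1 of 994.6 mg/kg the difference was -0.24 with an adjusted p of 0.162, and the call ended in 11 of 18 alternatives.

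Gpt, alanine aminotransferase, moves the amino group of alanine to glutamate. It read 10.22, 10.40, 10.30, 10.41 and 10.17 in control rats and 11.05, 10.47 and 10.62 at 994.6 mg/kg. The values were 10.36, 10.44 and 10.74 at 62.3 mg/kg, 10.35, 10.69 and 10.15 at 124.5, 10.76, 10.74 and 10.81 at 248.6, and 10.85, 10.47 and 10.85 at 497.3 mg/kg. From 248.6 mg/kg upward all 9 rats lay above the control range, and the group means did not rise further, at 10.77, 10.72 and 10.71. The slope was 0.09 per dose step (adjusted p = 0.0236), and the call ended in 6 of 31 alternatives. Among these were the treated arrays alone, and the fits without replicate 1 of 994.6 mg/kg or control replicate 1 or 5. At 994.6 mg/kg the difference was 0.41 ± 0.14 (adjusted p = 0.0934), and 0.24 (adjusted p = 0.523) without replicate 1.

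Gls2, the liver glutaminase that frees ammonia from glutamine, read 11.89, 11.80, 11.93, 11.85 and 12.05 in control rats and 10.97, 11.75 and 11.53 at 994.6 mg/kg. All 3 rats lay below control, replicate 1 farthest. The difference of -0.49 ± 0.15 did not pass the test (adjusted p = 0.0608). Glul, the glutamine synthetase that captures ammonia near the central vein, differed by -0.19 (adjusted p = 0.429), with 1 of its 3 probe sets at 0.32. Got1, cytosolic aspartate aminotransferase, differed by -0.32 ± 0.34 (adjusted p = 0.691).

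In the proline and ornithine group Prodh fell at 994.6 mg/kg, and the slope over dose steps was called downward for Oat and Prodh. Over the treated arrays alone neither slope was called. Prodh, proline dehydrogenase, takes the first step of proline breakdown in mitochondria. Its values were 10.55, 10.60, 10.25, 10.91 and 10.44 in control rats and 9.69, 9.98 and 9.83 at 994.6 mg/kg. They were 10.24, 10.53 and 10.21 at 62.3 mg/kg, 10.26, 10.74 and 10.44 at 124.5, 10.13, 10.38 and 10.22 at 248.6, and 9.93, 10.18 and 10.09 at 497.3 mg/kg. Rats of the 2 upper doses lay below all controls, and the lower doses overlapped them. The difference at 994.6 mg/kg was -0.72 ± 0.13 (adjusted p = 0.00436), or 0.609 of the control level, and -0.65 (adjusted p = 0.0409) without replicate 1. The slope was -0.13 per step (adjusted p = 0.00166). A second, dim Prodh probe set differed by -0.02, and with the mean of both the Prodh difference was -0.37 (adjusted p = 0.00837).

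Oat, ornithine aminotransferase, links ornithine to glutamate and proline. It ranged widely in control, at 11.00, 10.49, 11.22, 9.99 and 11.53, and read 10.16, 10.21 and 9.86 at 994.6 mg/kg. The other groups read 10.52, 11.29 and 10.98 at 62.3 mg/kg, 10.95, 10.86 and 10.66 at 124.5, 10.90, 10.49 and 9.71 at 248.6, and 10.42, 9.86 and 9.85 at 497.3 mg/kg. Control replicate 4 was as low as the treated rats of the upper doses, so the groups overlapped. The slope was -0.19 per step (adjusted p = 0.0208) and its call ended without control replicate 5. The difference at 994.6 mg/kg was -0.77 ± 0.29 (adjusted p = 0.141), and leaving out control replicate 4 made it -0.99 (adjusted p = 0.0431).

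The rest of the group was not called. Prodh2, which acts on hydroxyproline, differed by -0.36 ± 0.16 at 994.6 mg/kg (adjusted p = 0.218). Aldh4a1, the dehydrogenase of the next step in both proline and hydroxyproline breakdown, differed by 0.01 (adjusted p = 0.964).

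Of the aromatic amino acid genes, 2 of 10 were called at 994.6 mg/kg, both lower, with a median of -0.06 over the 10. Hgd, homogentisate dioxygenase, opens the ring in tyrosine breakdown. It read 11.83, 11.67, 11.55, 11.63 and 11.68 in control rats and 11.07, 11.30 and 11.13 at 994.6 mg/kg. The intermediate groups read 11.30, 11.51 and 11.55, then 11.52, 11.60 and 11.39, then 11.39, 11.45 and 11.43, then 11.48, 11.34 and 11.14. From 248.6 mg/kg upward every rat lay below every control rat. The difference was -0.50 ± 0.09 (adjusted p = 0.00366), and -0.45 (adjusted p = 0.034) without replicate 1 of 994.6 mg/kg. The slope was -0.09 per step (adjusted p = 0.00131).

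The neighbours of Hgd in the same chain were not called. Hpd, which makes homogentisate, differed by 0.12 (adjusted p = 0.315), with an interval from -0.01 to 0.26. Gstz1 and Fah, which act after Hgd, differed by -0.11 (adjusted p = 0.472) and -0.03 (adjusted p = 0.87). Qdpr, which recycles the cofactor of phenylalanine hydroxylase, differed by -0.04 (adjusted p = 0.857). The 95% intervals of Hpd, Gstz1, Fah and Qdpr lie wholly above the Hgd estimate, with -0.26 as their lowest bound, although the differences between genes were not tested. Tat, the transaminase that begins tyrosine breakdown, differed by 0.68 ± 0.44 (adjusted p = 0.449).

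Kmo, kynurenine 3-monooxygenase, sits midway in the breakdown of tryptophan. It read 10.75, 10.85, 11.01, 10.98 and 11.00 in control rats and 10.16, 10.50 and 10.41 at 994.6 mg/kg. The other doses gave 10.67, 10.76 and 10.78 at 62.3 mg/kg, 10.84, 11.09 and 10.59 at 124.5, 10.62, 10.67 and 10.52 at 248.6, and 10.64, 10.69 and 10.35 at 497.3 mg/kg. All 9 rats from 248.6 mg/kg upward lay below the lowest control. The difference at 994.6 mg/kg was -0.56 ± 0.11 (adjusted p = 0.00623), and -0.46 (adjusted p = 0.0659) without replicate 1. The slope was -0.10 per step (adjusted p = 0.00201). Tdo2, the dioxygenase that begins the pathway, differed by -0.17 (adjusted p = 0.645), and Kynu and Haao, which act after Kmo, by -0.07 (adjusted p = 0.796) and -0.06 (adjusted p = 0.761).

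In the glycine and serine group Shmt1 rose at 994.6 mg/kg, and the slope over dose steps was called upward for Amt and Shmt1. Over the treated arrays alone neither slope was called. Shmt1, cytosolic serine hydroxymethyltransferase, interconverts serine and glycine and passes a carbon unit to folate. Its values were 10.87, 10.78, 10.86, 10.82 and 10.94 in control rats and 11.10, 11.20 and 11.16 at 994.6 mg/kg. They were 10.87, 11.01 and 10.83 at 62.3 mg/kg, 11.04, 11.12 and 10.89 at 124.5, 11.01, 11.11 and 11.00 at 248.6, and 11.01, 11.14 and 10.95 at 497.3 mg/kg. From 248.6 mg/kg upward all rats lay above all controls. The difference was 0.30 ± 0.07 (adjusted p = 0.0238), the slope 0.06 per step (adjusted p = 0.00588). Without control replicate 2 the adjusted p at 994.6 mg/kg was 0.0536, and without 1 of the 3 treated rats it was 0.0535 to 0.0789.

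Amt, the aminomethyltransferase of the glycine cleavage system, read 9.53, 9.69, 9.76, 9.50 and 9.65 in control rats and 9.87, 9.73 and 9.87 at 994.6 mg/kg. The other groups read 9.67, 9.78 and 9.55, then 9.65, 9.86 and 9.78, then 9.92, 9.82 and 9.92, then 9.82, 9.91 and 9.77 at 497.3 mg/kg. The groups at 248.6 and 497.3 mg/kg lay above control, while 1 rat at 994.6 mg/kg overlapped it. The Amt group means did not rise further from 248.6 mg/kg upward, at 9.884, 9.831 and 9.823. The slope was 0.05 per step (adjusted p = 0.0354), and the call ended without replicate 1 of 994.6 mg/kg and in 10 other of the 31 alternatives. Gldc, the decarboxylase of the same system, differed by -0.14 at 994.6 mg/kg (adjusted p = 0.679). Agxt, which converts glyoxylate to glycine, differed by 0.16 (adjusted p = 0.508), and Sds, which turns serine into pyruvate, by -0.48 ± 0.31 (adjusted p = 0.446).

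In the sulfur and methyl group Cbs and Ahcy fell. Cbs, cystathionine beta-synthase, commits homocysteine to cysteine synthesis and was the one member called at both upper doses. It read 11.81, 11.85, 11.81, 11.70 and 12.02 in control rats, 11.24, 11.38 and 11.14 at 497.3 mg/kg and 10.92, 11.47 and 11.18 at 994.6 mg/kg. At 62.3, 124.5 and 248.6 mg/kg it read 11.66, 11.87 and 11.56, then 11.57, 11.89 and 11.64, then 11.55, 11.79 and 11.69. Both upper doses lay below all rats of the other groups, and the 3 lower doses overlapped control. The difference was -0.58 ± 0.12 at 497.3 mg/kg (adjusted p = 0.0232) and -0.65 ± 0.12 at 994.6 mg/kg (adjusted p = 0.00347, 0.639 of the control level). Without replicate 1 of 994.6 mg/kg the latter was -0.51 (adjusted p = 0.0381), and the slope over all doses was -0.13 per step (adjusted p = 0.00102).

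Ahcy, which splits S-adenosylhomocysteine into homocysteine and adenosine, read 13.11, 13.13, 13.08, 13.08 and 13.04 in control rats and 12.76, 12.89 and 12.79 at 994.6 mg/kg. At the lower doses it read 13.04, 13.23 and 13.04, then 12.98, 13.13 and 13.06, then 13.00, 13.04 and 12.91, then 12.97, 12.90 and 12.85. Both upper doses lay below all control rats. The difference at 994.6 mg/kg was -0.27 ± 0.07 (adjusted p = 0.0286), and -0.24 (adjusted p = 0.161) without replicate 1, and the call ended in 9 of 18 alternatives. Its slope was -0.05 per step (adjusted p = 0.00489).

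Upstream and beside these, Gnmt, which uses S-adenosylmethionine to methylate glycine, differed by -0.30 ± 0.11 (adjusted p = 0.122) with all 3 rats below control. Cth, which releases cysteine after Cbs, differed by -0.19 (adjusted p = 0.474), also with all 3 rats below control. Mat1a, which makes S-adenosylmethionine, differed by 0.09 (adjusted p = 0.738). Bhmt, which turns homocysteine back into methionine, differed by 0.18 ± 0.22 (adjusted p = 0.741).

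No branched-chain member was called by limma at any dose or in the trend. None had an unadjusted p under 0.05 at 994.6 mg/kg, while with array weights in the fit Bckdha and Mccc1 were called there. Hibch, a branched-chain gene outside the members, was called at 994.6 mg/kg and is given further below. The members from leucine, isoleucine and valine breakdown were Bckdha, Bckdhb, Ivd, Mccc1 and Mccc2. Bckdha and Bckdhb are subunits of the branched-chain ketoacid dehydrogenase. Ivd is isovaleryl-CoA dehydrogenase, and Mccc1 and Mccc2 are subunits of methylcrotonyl-CoA carboxylase. At 994.6 mg/kg the log2 differences with their 95% intervals were 0.12 (-0.06 to 0.30) for Bckdha and 0.05 (-0.22 to 0.32) for Bckdhb. They were -0.07 (-0.29 to 0.14) for Ivd, 0.21 (-0.02 to 0.43) for Mccc1 and 0.02 (-0.19 to 0.22) for Mccc2. A second, dim Bckdha probe set, with a mean of 6.14, differed by -0.85 (limma adjusted p = 0.243 over all probe sets). The Mccc1 level was 9.81, 9.84, 9.93, 9.76 and 9.79 in control rats and 10.05, 10.03 and 10.03 at 994.6 mg/kg. In between it was 10.03, 10.05 and 9.64, then 9.93, 10.21 and 9.82, then 10.04, 9.89 and 9.98, then 10.00, 10.16 and 9.75. The highest dose lay above control for Mccc1, and the other doses overlapped it.

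The lysine group held Aass, the bifunctional enzyme that begins lysine breakdown. Aass read 12.19, 12.37, 12.39, 12.37 and 12.17 in control rats and 13.40, 12.63 and 12.53 at 994.6 mg/kg. The other groups read 12.54, 12.77 and 12.40 at 62.3 mg/kg, 12.42, 12.88 and 13.02 at 124.5, 12.38, 12.91 and 12.27 at 248.6, and 12.41, 12.41 and 12.15 at 497.3 mg/kg. Replicate 1 of the highest dose was the highest of all rats, and the rats at 497.3 mg/kg overlapped control. The difference at 994.6 mg/kg was 0.56 ± 0.18 (adjusted p = 0.0868). Without replicate 1 of that dose it was 0.28 (adjusted p = 0.547), without replicate 3 it was 0.72 (adjusted p = 0.0441) and with array weights 0.35 (adjusted p = 0.0374).

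**Figure D3:**
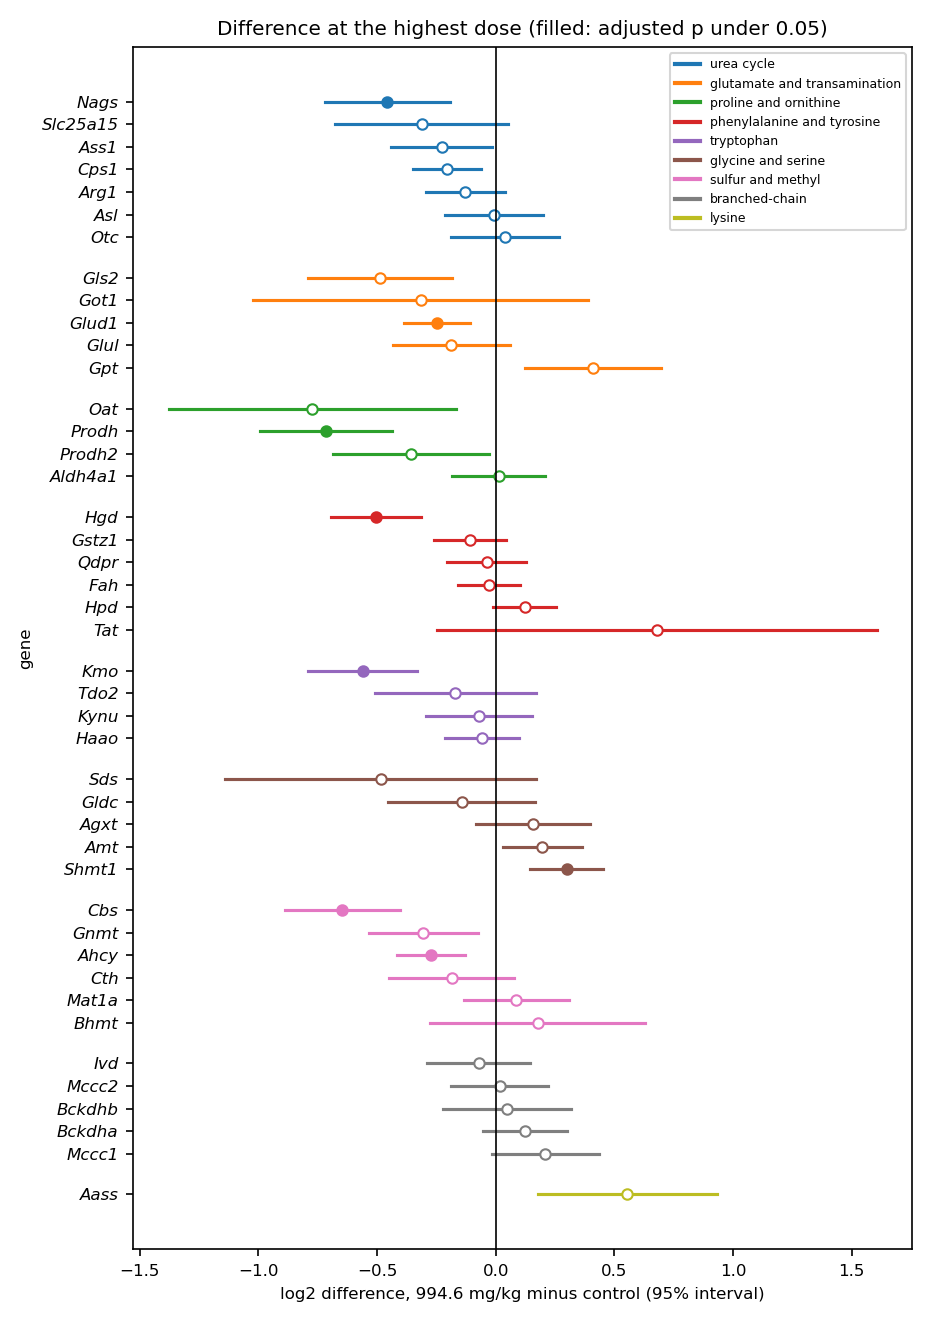
Points give the log2 difference of 994.6 mg/kg from control for each of the 43 genes and bars its 95% interval from limma, coloured by pathway group and filled where the adjusted p was under 0.05. The 5 branched-chain genes lie near 0 with intervals that include it, and Prodh and Cbs have the lowest called values, -0.72 and -0.65.

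At 994.6 mg/kg the median difference was -0.54 over the 4 proline and ornithine genes, -0.23 over the 6 sulfur and methyl genes, -0.21 over the 7 urea cycle genes, -0.06 over the 10 aromatic genes and 0.05 over the 5 branched-chain genes. The counts called were 1 of 4, 2 of 6, 1 of 7, 2 of 10 and 0 of 5, beside 4.47% of all genes. Differences below 0 numbered 3 of 4, 4 of 6, 6 of 7, 8 of 10 and 1 of 5. At 62.3 and 124.5 mg/kg the urea cycle median was 0.12 and 0.09, and at 497.3 mg/kg -0.09. That of the proline and ornithine group was -0.06, -0.05 and -0.24 at those doses. Differences between pathways were not tested.

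Averaged over its genes within each rat, the urea cycle ran from -0.19 to -0.18 around the control mean at 994.6 mg/kg, a narrower range than the -0.02 to 0.28 at 62.3 mg/kg, and control rats lay between -0.02 and 0.03. The proline and ornithine mean ran from -0.55 to -0.34 at 994.6 mg/kg, below the control range of -0.14 to 0.29. For sulfur and methyl genes it ran from -0.27 to -0.09, below the control range of -0.05 to 0.05. The branched-chain mean ran from -0.00 to 0.14, overlapping the control range of -0.09 to 0.07. In the aromatic groups the tryptophan mean ran from -0.26 to -0.16, below control, and the phenylalanine and tyrosine mean from 0.01 to 0.04, inside the control range of -0.06 to 0.06. This last mean joins genes that went opposite ways, Hgd at -0.50 (called) and Tat at 0.68 (not called). Tat had the widest SD within groups of all members, 0.695.

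**Figure D4:**
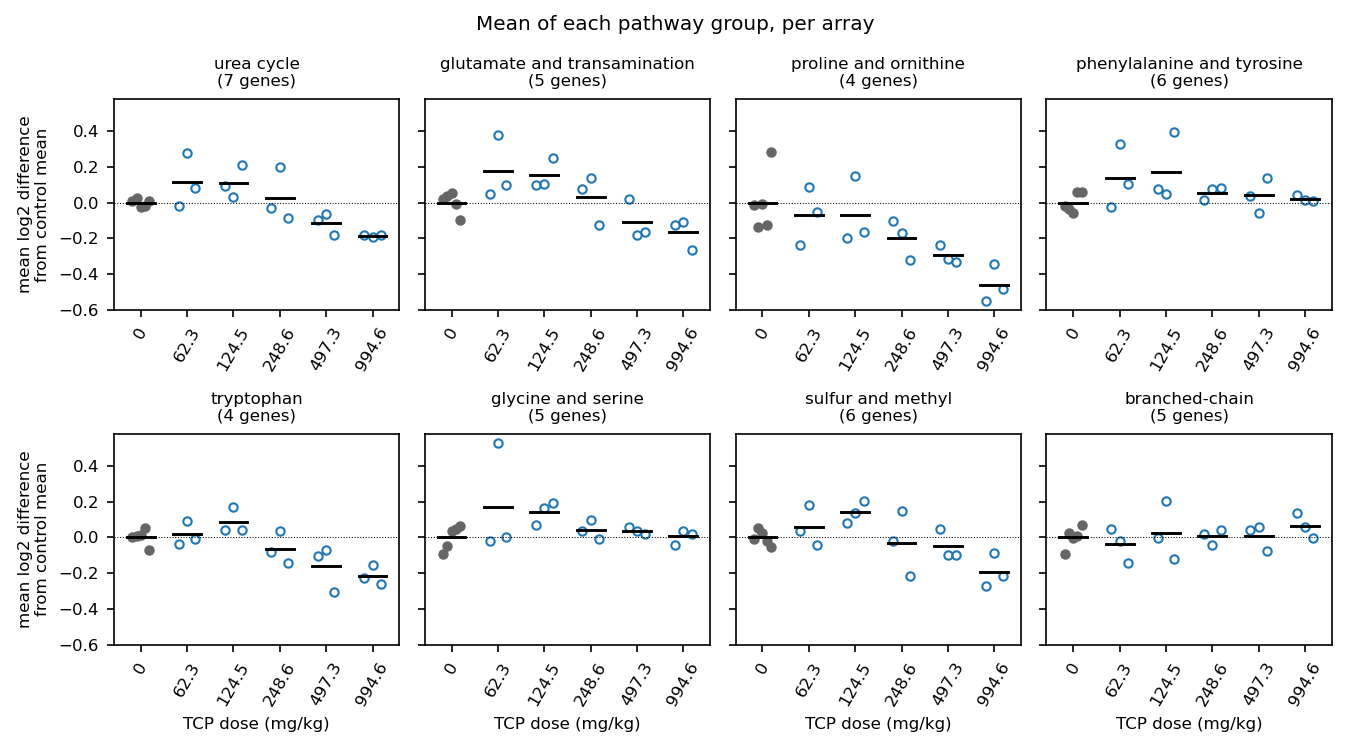
Each point is the mean log2 difference from the control mean over the genes of a pathway group in 1 rat (filled, control; open, TCP) against dose in mg/kg, with group means as bars. At 994.6 mg/kg the proline and ornithine points lie lowest, at -0.55 to -0.34, and the branched-chain points lie around 0.

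The members also differed in how much rats of a group varied. The SD within groups was widest for Tat (0.695), Got1 (0.527), Sds (0.488) and Oat (0.451), and narrowest for Fah (0.0527), Hpd (0.0552) and Glud1 (0.0652). These were picked out after their values were seen. Tat read 9.93, 11.69 and 10.06 at 62.3 mg/kg and 10.08, 9.63 and 12.07 at 124.5 mg/kg, against 9.36, 9.27, 9.25, 9.97 and 9.38 in control rats. Got1 read 11.24, 12.25 and 10.64, and 11.34, 10.77 and 12.33, at the same doses, against 10.61 to 10.98 in control rats. Replicate 2 of 62.3 mg/kg and replicate 3 of 124.5 mg/kg were the highest rats of their groups for both genes. Replicate 2 of 62.3 mg/kg was also the highest of all rats for Sds, at 9.26 against 7.50 to 8.21 in control. At 497.3 and 994.6 mg/kg Sds lay in a narrow band of 7.08 to 7.28, below all controls, and at 994.6 mg/kg this difference was not called.

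**Figure D5:**
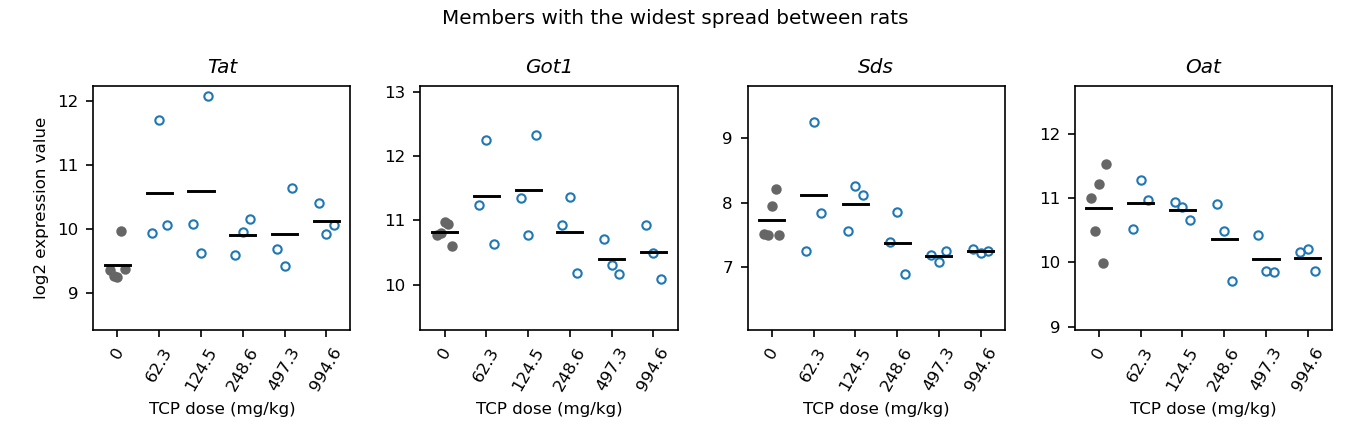
Each point is the log2 expression value of 1 rat (filled, control; open, TCP) against dose in mg/kg, with group means as bars, for the 4 members with the widest spread within groups. Single rats at 62.3 and 124.5 mg/kg reach 11.69 and 12.07 for Tat and 12.25 and 12.33 for Got1.

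Other genes of the same pathways, 70 of 81 listed being measured, showed 2 higher and 2 lower calls at 994.6 mg/kg (5.71%, near the 4.47% of all genes), with a median of 0.06. The called genes are given by name as single genes and not as a result about the list. Hibch, a hydrolase of valine breakdown, rose by 0.50 ± 0.12 (adjusted p = 0.025), and Dlst, a subunit of the ketoglutarate and ketoadipate dehydrogenases, by 0.33 ± 0.08 (adjusted p = 0.0267). Hao1, which oxidises glycolate to glyoxylate, differed by -0.37 ± 0.09 (adjusted p = 0.0293), and Asrgl1, an asparaginase, by -0.30 ± 0.08 (adjusted p = 0.0334). All 4 calls ended without replicate 1 of 994.6 mg/kg, with adjusted p of 0.0925, 0.222, 0.244 and 0.192. Asns, which makes rather than breaks down asparagine, had a called slope of 0.23 per step (adjusted p = 0.0468), a call that ended in 22 of 31 alternatives. Of 15 other branched-chain genes measured, 14 lay above 0 at 994.6 mg/kg and 1 was called, Hibch. Of all genes 51.6% lay below 0 and 4.47% were called, and these 15 genes were not tested as a list.

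Among 10 measured regulators of these genes, 1 was called at 994.6 mg/kg, beside 4.47% of all genes. It was Atf4, a transcription factor that drives amino acid supply genes under stress (0.82 ± 0.17, adjusted p = 0.00968, and 0.0963 without replicate 1 of that dose). Nr3c1, the glucocorticoid receptor, differed by 0.08 (adjusted p = 0.847), Gcgr, the glucagon receptor, by -0.13 (adjusted p = 0.611) and Hnf4a, a hepatocyte transcription factor, by -0.27 (adjusted p = 0.132).

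Of 11 genes that mark the periportal zone, urea cycle members included, 10 lay below control at 994.6 mg/kg, beside 51.6% of all genes. Beside 4.47% of all genes, 2 of the 11 were called. These were Hal, which begins histidine breakdown (-0.83 ± 0.18, adjusted p = 0.0142), and the cytochrome P450 gene Cyp2f4 (-0.54 ± 0.11, adjusted p = 0.00622). Both calls ended without replicate 1 of 994.6 mg/kg, with adjusted p of 0.136 and 0.0606. Of 8 measured pericentral genes 5 lay below control and 1 was called, beside the same shares of all genes. The called gene was the glutamate transporter Slc1a2 (0.91 ± 0.12, adjusted p = 0.000158), called under all 17 alternatives run for it. In the trend 3 of these 8 were called, beside 6.47% of all genes. They were Slc1a2 upward (0.13 per step, adjusted p = 0.00394), the transcription factor Tbx3 upward (0.21 per step, adjusted p = 0.0294) and the member Oat downward, as given above. The Tbx3 call ended in 5 of 30 alternatives, among them the replicate block (adjusted p = 0.123) and leaving out control replicate 2 or 4 or replicate 1 of 497.3 mg/kg. The Slc1a2 trend call ended over treated arrays only. The part of the zone markers in the member differences was not tested.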

How the data were processed

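Liver RNA of 20 rats was hybridised to 1-colour arrays. The authors deposited log2 values, and the submitters' processing notes name RMA as the tool. No version is given in the sources used here, nor which arrays were normalized together. The number of arrays limits the precision. The table has 31099 probe sets, 57 for controls. The annotation pairs 20826 of the rest with 1 gene symbol, 436 with several and 9780 with none. The gene ID gave the current symbol of 20758, an accession that of 2, and 66 kept the older one.

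With limma 3.58.1 in R 4.3.3, 1 mean per group was fitted over all 20 arrays (14 residual and 4.77 prior degrees of freedom), with no filter on low values. The trend used dose steps 0 to 5. Errors are limma's SE and p-values Benjamini-Hochberg adjusted. The fit was tested on simulated data. The labels name separate rats. Members and lists were chosen with earlier results of these data known. Values in every rat are given for members called at 994.6 mg/kg or in the trend, and for the largest change in each group without one. Gls2, Tat, Got1 and Sds were added after their values were seen. Other genes are named where called, up to 4 per list, with 3 uncalled regulators as examples. Promoter motifs were counted with Python 3.11.15. Alternatives changed the gene filter, probe set rule, scaling, eBayes settings, array weighting, replicate blocking, a GAPDH covariate, the arrays in the fit and, in turn, each array. The fit without both arrays that stood apart, replicate 1 of 994.6 mg/kg and replicate 2 of 124.5 mg/kg, was added after seeing the data.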

Additional observations from a re-analysis of the deposited data

Results flagged for a closer look

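In 3 of 54 sets of control values examined, 1 of the 5 control rats lay far from the other 4 relative to their whole range; chance alone gives about 1 in 20 groups. For Ass1, control replicate 2 read 13.13 and the others 13.36 to 13.4. For Tat, control replicate 4 read 9.97 and the others 9.249 to 9.378. For Kynu, control replicate 5 read 12.03 and the others 12.29 to 12.37. Among the trend alternatives run, Ass1 was called where control replicate 2 was left out and in no other.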

How the results depend on the processing

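No named gene followed across the alternatives changed sign in those run. The 8 calls at 994.6 mg/kg became 5 with median centring and 14 with array weights (10 lower, 4 higher), and 3 to 8 with 1 array left out (3 without replicate 1 of that dose). Without both arrays that stood apart, chosen after seeing the data, 5 remained called. Of all 18 alternatives for the count at 994.6 mg/kg, those named here included, 11 stayed within 1.5 times. At 497.3 mg/kg the 1 call became 2 with array weights and 0 with the GAPDH covariate, and 0 to 1 with 1 array left out. At 248.6, 124.5 and 62.3 mg/kg and between 994.6 and 497.3 mg/kg, 0 members were called under every alternative run. The 11 trend calls became 0 over treated arrays only, a fit with 5 fewer arrays and no control, and 8 to 12 with 1 array left out. Over all genes at 994.6 mg/kg, more calls were higher than lower (356 and 279), and with median centring too (291 and 193), while quantile normalization turned this to 473 higher and 512 lower.

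Same-numbered rats were not paired by the labels, and their deviations correlated at -0.182, -0.0815 and -0.23 between 994.6 mg/kg and control. The replicate block left 6 members called at 994.6 mg/kg, all among the 8, ending the calls of Ahcy and Glud1 there. In the trend it left 9, of which 8 were among the 11: it ended Amt, Cps1 and Gpt and added Glul. Where not stated, the cause was not tested.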
